A study of Mus musculus with 19 samples.

Results

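Regulatory T cells (Tregs) of injury-site draining lymph nodes were described here through 8 genes, the lineage factor *Foxp3*, the Ikaros family genes *Ikzf1*, *Ikzf2*, *Ikzf3* and *Ikzf4*, the surface receptors *Nrp1* and *Gpr83*, and the sort marker *Cd44*. They were taken by symbol (FOXP3, IKZF1, IKZF2, IKZF3, IKZF4, NRP1, GPR83 and CD44) from a table of 24982 genes, and all 8 were found and passed the filter on low counts, as did 11464 genes in all. The 19 bulk RNA-seq libraries came from Foxp3DTR mice, aged 8 to 16 weeks per the study's methods, which express GFP and the diphtheria toxin receptor from the *Foxp3* gene in all groups. Their CD4+FoxP3-GFP+ cells had been sorted as CD44high or CD44low, 50000 per sample, 7 days after a burn (injured) or sham treatment (uninjured). There were 4 CD44high and 5 CD44low libraries from uninjured mice and 4 CD44high and 6 CD44low libraries from injured mice. The labels do not say whether a sample is 1 mouse or a pool, so p-values measure the spread between these samples, which may be technical. The labels name no treatment with the toxin. Levels are given as CPM, counts scaled by each library's TMM-normalized total, and a gene was called different at an adjusted p under 0.05 in edgeR's quasi-likelihood test (two-sided, Benjamini-Hochberg over 11464 genes).

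*Foxp3* is the transcription factor that sets up and keeps the Treg program. The Ikaros family proteins are zinc finger factors that pair with one another on DNA and recruit the chromatin remodeler NuRD. *Ikzf1* encodes Ikaros, *Ikzf2* Helios, *Ikzf3* Aiolos and *Ikzf4* Eos, a partner of *Foxp3* in gene repression. Neuropilin-1, the product of *Nrp1*, binds semaphorins and VEGF and marks many Tregs of thymic origin, and *Gpr83* is a G protein-coupled receptor known as a Treg signature gene. CD44 binds hyaluronan and is high on antigen-experienced T cells.

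Library totals ranged from 5582234 to 9433610 counts, and the members had between 348 and 5095 counts per library. All replicate pairs differed by more than counting noise, with a chi-square of 4.96 to 41.3 per gene. Among injured CD44low Tregs, the libraries 1_2, 4_2 and 5_2 carry a further number of unstated meaning (the second number), and the results whose call or size they moved most are given with and without them. The T cell markers *Cd3d*, *Cd3e*, *Cd3g* and *Cd4* summed to between 3470 and 4660 CPM in every library, and *Cd4* alone to at least 501 CPM. B cell markers summed to between 73.3 and 216 CPM.

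Bases upstream of a start are shown for *Gpr83* and *Cd44*, which had the largest differences of opposite direction between the subsets, and for *Ikzf1*. They are 250 bases long, 5′ to 3′, from RefSeq on GRCm38.p6, and capitals mark the Ikaros core motif TGGGAA on either strand (TTCCCA). *Gpr83* is at chr9:14859960-14860209 (plus strand), *Cd44* at chr2:102901666-102901915 (minus strand) and *Ikzf1*, the first of its 2 starts, at chr11:11685675-11685924 (plus strand). None of these bases lies in an annotated exon.
Gpr83: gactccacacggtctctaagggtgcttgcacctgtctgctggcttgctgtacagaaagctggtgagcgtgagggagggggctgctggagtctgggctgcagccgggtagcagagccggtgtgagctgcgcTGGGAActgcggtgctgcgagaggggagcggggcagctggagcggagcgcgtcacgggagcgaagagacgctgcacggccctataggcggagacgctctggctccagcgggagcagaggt
Cd44: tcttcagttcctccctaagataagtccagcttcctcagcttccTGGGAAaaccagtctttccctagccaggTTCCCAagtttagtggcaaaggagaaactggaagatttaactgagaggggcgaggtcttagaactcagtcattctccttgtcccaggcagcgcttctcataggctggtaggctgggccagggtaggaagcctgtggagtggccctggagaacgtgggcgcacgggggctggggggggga
Ikzf1: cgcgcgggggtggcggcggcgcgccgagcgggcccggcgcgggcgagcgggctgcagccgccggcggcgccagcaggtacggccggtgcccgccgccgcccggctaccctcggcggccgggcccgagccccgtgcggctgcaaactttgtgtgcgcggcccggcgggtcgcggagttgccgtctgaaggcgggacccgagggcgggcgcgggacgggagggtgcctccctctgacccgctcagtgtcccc
The motif was found 1 time before *Gpr83*, 2 times before *Cd44* and 0 times before *Ikzf1*, and 21.6% of 32851 promoter windows of this length held it. The windows before *Nrp1*, the other start of *Ikzf1* and the 2 starts of *Foxp3* also held 0. All bases of the 2 *Foxp3* windows lie in annotated exons. RefSeq windows matched 5 of the 8 members, and *Ikzf2*, *Ikzf3* and *Ikzf4* had no entry. A match in letters is a description and was read neither as a bound site nor as a cause.

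The sort marker was described first, since it checks the labels. *Cd44* (ENSMUSG00000005087.17; chromosome 2, 102811141 to 102901665, minus strand, GENCODE vM21) was at 614, 597, 541 and 626 CPM in CD44high Tregs of uninjured mice. It was at 156, 137, 135, 128 and 111 CPM in CD44low Tregs. In injured mice the CD44high libraries were at 369, 497, 420 and 459 CPM and the CD44low libraries between 102 and 150 CPM with a median of 114. Every CD44high library was above every CD44low library, by 4.46-fold in uninjured and 3.72-fold in injured mice. Since the cells were sorted on CD44 protein, this is a check of the sort and was not read as a result.

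**Figure D1:**
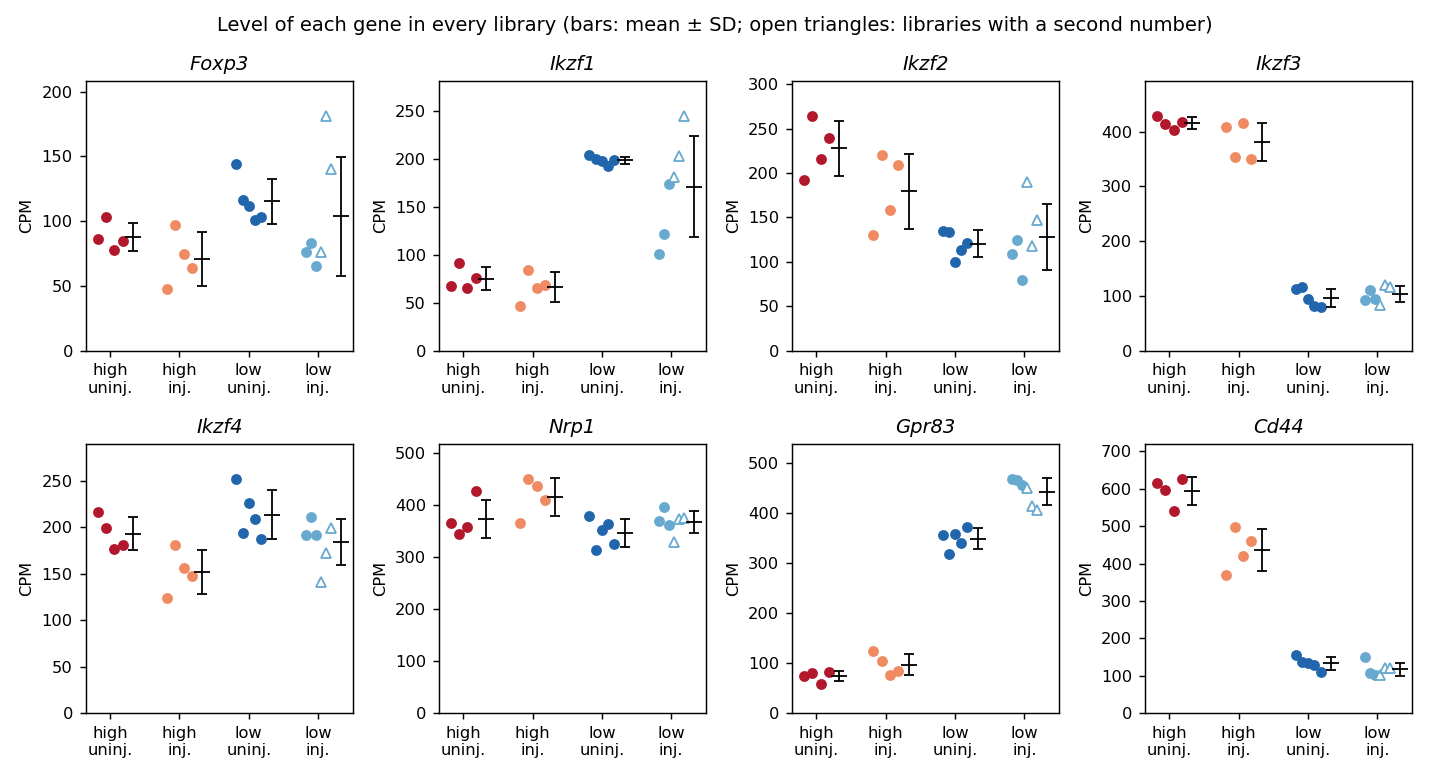
CPM of each of the 8 genes (vertical axis) in each of the 19 libraries (points) by group (horizontal axis: CD44high or CD44low Tregs of uninjured or injured mice), with the mean ± SD beside the points and open triangles for the injured CD44low libraries 1_2, 4_2 and 5_2. *Cd44* and *Ikzf3* are high in CD44high libraries, *Gpr83* and *Ikzf1* in CD44low libraries, and *Foxp3* of the injured CD44low group runs from 65.5 to 181 CPM.

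CD44high and CD44low Tregs of uninjured mice differed in 5 of the 8 genes, and 3 did not pass the test. *Ikzf3*, *Ikzf2* and *Cd44* were higher and *Gpr83* and *Ikzf1* lower in CD44high Tregs. Of all genes tested, 46.1% were called in this comparison, 24.7% higher and 21.3% lower. In injured mice the same 5 genes were called in the same directions, against 37.4% of all genes, 20.1% higher and 17.2% lower. The groups did not overlap for 5 genes in uninjured and for 4 in injured mice, against 40.7% and 24.8% of all genes. With *Cd44* set aside as the sort marker, 4 of 7 were called in each. In bulk samples, fewer cells of a type and less RNA per cell cannot be told apart.

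Among the Ikaros genes, *Ikzf3* differed most. *Ikzf3* (ENSMUSG00000018168.8; chromosome 11, 98464902 to 98546031, minus strand) was at 428, 414, 402 and 418 CPM in uninjured CD44high libraries and between 80.0 and 116 CPM in the 5 CD44low libraries. This was 4.30-fold higher, a log2 fold change of 2.10 (SE 0.123, 95% interval 1.86 to 2.34, adjusted p = 1.67e-12, edgeR). In injured mice the CD44high libraries were at 408, 353, 415 and 349 CPM against 83.1 to 120 CPM with a median of 103. The difference was 1.89 on the log2 scale (SE 0.116, adjusted p = 5.87e-12, edgeR). The groups were far apart in both conditions, and Aiolos transcripts were the most even of the members within uninjured CD44high Tregs, with a CV of 2.54%.

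*Ikzf1* went the other way. *Ikzf1* (ENSMUSG00000018654.17; chromosome 11, 11685003 to 11772926, plus strand) was at 68.1, 91.6, 65.6 and 76.0 CPM in uninjured CD44high Tregs. The 5 CD44low libraries were at 193 to 204 CPM, with an SD of 4.08. The fit gave CD44low Tregs 2.64-fold more, a log2 fold change of -1.40 (SE 0.197, adjusted p = 3.56e-06, edgeR). In injured mice CD44high libraries held 46.2, 84.5, 65.1 and 68.8 CPM and CD44low libraries 101 to 245 CPM with a median of 178, a log2 fold change of -1.37 (SE 0.192, adjusted p = 4.22e-06, edgeR). The subsets did not overlap in either condition, but the injured CD44low libraries were spread over more than a doubling of the level. Without libraries 1_2, 4_2 and 5_2 the difference in injured mice was -1.0 (adjusted p = 0.000111, edgeR). With only those libraries for the CD44low group it was -1.69 (adjusted p = 4.56e-08, edgeR).

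*Ikzf2* was higher in CD44high Tregs by a smaller margin. *Ikzf2* (ENSMUSG00000025997.13; chromosome 1, 69531214 to 69687245, minus strand) was at 192, 264, 216 and 240 CPM against 100 to 135 CPM in uninjured mice. The log2 fold change was 0.92 (SE 0.184, adjusted p = 0.000283, edgeR). In injured mice the values were 130, 220, 158 and 209 CPM against 79.4 to 190 CPM with a median of 121. The difference was 0.49 (SE 0.176, adjusted p = 0.0323, edgeR), and the groups overlapped. That call for *Ikzf2* was lost when any of 6 libraries was left out. Without CD44high libraries 3 or 5 it was 0.37 (adjusted p = 0.127) or 0.41 (0.117), and without CD44low libraries 1, 2, 5 or 4_2 it was 0.42 (0.0706), 0.46 (0.0553), 0.37 (0.0725) or 0.45 (0.0596). It was 0.22 (adjusted p = 0.349, edgeR) with only 1_2, 4_2 and 5_2 for the CD44low group and 0.78 (0.00156) without them, and 0.47 (0.0897) in a fit of the injured groups alone.

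*Ikzf4* did not pass the test in either condition. *Ikzf4* (ENSMUSG00000002578.17; chromosome 10, 128630843 to 128645991, minus strand) was at 216, 199, 177 and 181 CPM in CD44high and 187 to 252 CPM in CD44low Tregs of uninjured mice. The log2 difference was -0.15 (95% interval -0.39 to 0.10, adjusted p = 0.345, edgeR). In injured mice it was at 124, 181, 156 and 148 CPM against 141 to 211 CPM, a log2 difference of -0.28 (95% interval -0.51 to -0.04, adjusted p = 0.0729, edgeR). It was called there without CD44high library 3 (-0.37, adjusted p = 0.0274), without CD44low library 1_2 (-0.34, 0.0179) and without all 3 libraries of a second number (-0.38, 0.0219), and was -0.19 (0.313) with only those 3.

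The make-up of the family therefore differed between the subsets, which was described as shares of the summed counts per kilobase of exon. In uninjured mice *Ikzf3* took 42.3% ± 1.74 (SD, n = 4) of the 4-gene sum in CD44high and 12.0% ± 1.57 (n = 5) in CD44low Tregs. *Ikzf1* took 11.6% ± 1.30 and 37.7% ± 2.03. *Ikzf4* took 28.6% ± 2.14 and 38.9% ± 2.74, and *Ikzf2* 17.5% ± 2.00 and 11.4% ± 1.22. The order within CD44high Tregs was *Ikzf3*, *Ikzf4*, *Ikzf2* and *Ikzf1*, and in CD44low Tregs *Ikzf4* and *Ikzf1* overlapped at the top, as did *Ikzf3* and *Ikzf2* at the bottom. The order depended on the division by length: in undivided counts *Ikzf2* (25.0%) stood above *Ikzf4* (21.2%) in CD44high Tregs and took 19.2% in CD44low Tregs. With the longest transcript as the length, *Ikzf3* took 54.1% and 18.3%. In injured mice *Ikzf3* was at 45.8% ± 6.70 and 14.2% ± 1.65, and *Ikzf1* at 11.8% ± 2.02 and 35.0% ± 7.22. The *Ikzf1* share of injured CD44low libraries 1, 2 and 5 was 25.3%, 26.5% and 37.7%. In libraries 1_2, 4_2 and 5_2 it was 38.9%, 40.1% and 41.7%.

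**Figure D2:**
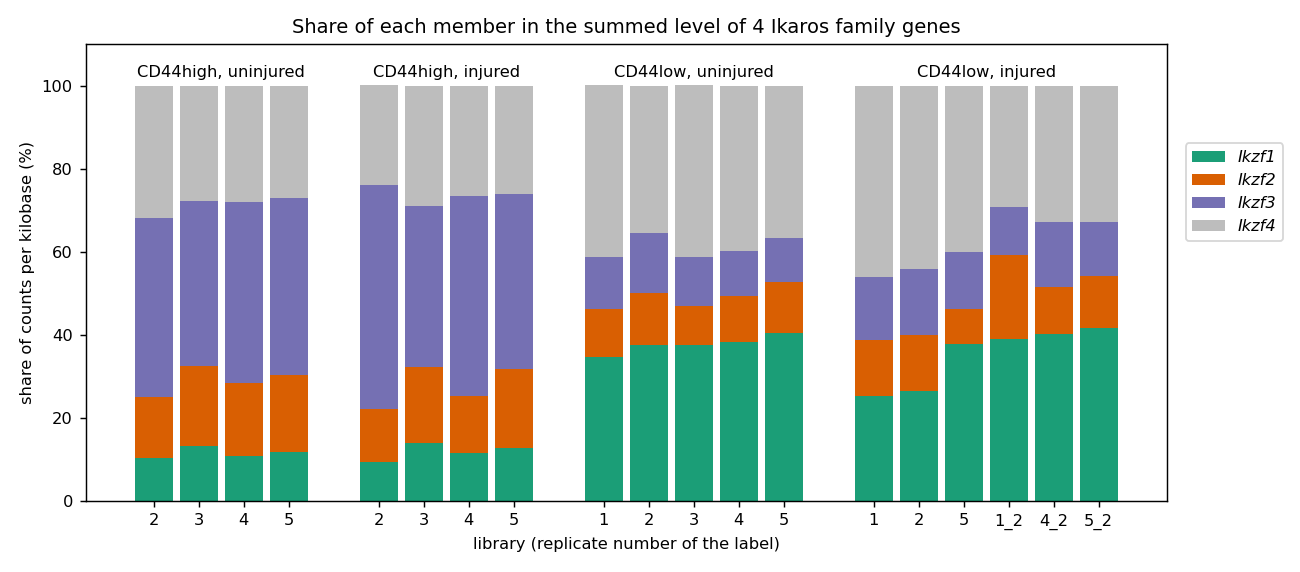
Share in percent (vertical axis) of *Ikzf1*, *Ikzf2*, *Ikzf3* and *Ikzf4* in the sum of their counts per kilobase of exon, 1 stacked bar for each of the 19 libraries, named by replicate number (horizontal axis) and grouped by subset and injury. *Ikzf3* is the largest part of each CD44high bar (38.8% or more) and at most 15.9% of a CD44low bar.

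The sum itself was 112 ± 5.59 CPM per kilobase in CD44high and 91.5 ± 6.38 in CD44low Tregs of uninjured mice, and 95.9 ± 7.42 and 83.2 ± 10.7 in injured mice. The ratio of *Ikzf3* to *Ikzf1* counts, chosen after the values were seen and given without a test, was 5.61 ± 0.799 and 0.486 ± 0.0779 in uninjured mice. In injured mice it was 6.12 ± 2.02 in CD44high and 0.648 ± 0.208 in CD44low Tregs. The highest ratio of a CD44low library was 0.909 and the lowest of a CD44high library was 4.18 in counts not divided by length. *Ikzf5*, the remaining family gene and named for that, was at 26.9 ± 1.61 and 30.3 ± 4.36 CPM in uninjured mice (adjusted p = 0.374, edgeR).

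*Gpr83* had the largest fold change of the members. *Gpr83* (ENSMUSG00000031932.14; chromosome 9, 14860210 to 14870789, plus strand) was at 75.1, 80.7, 59.4 and 82.2 CPM in uninjured CD44high Tregs and at 357, 318, 358, 340 and 372 CPM in CD44low Tregs. CD44low Tregs held 4.69-fold more, a log2 fold change of -2.23 (SE 0.128, adjusted p = 1.22e-12, edgeR). In injured mice it was at 124, 104, 76.2 and 84.5 CPM against 405 to 468 CPM with a median of 453, 4.56-fold more in CD44low Tregs (log2 -2.19, SE 0.124, adjusted p = 1.83e-12, edgeR). The lowest CD44low library was far above the highest CD44high library. By p-value, *Gpr83* ranked 71 of 11464 genes before and 36 after injury.

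*Nrp1* was close to level. *Nrp1* (ENSMUSG00000025810.9; chromosome 8, 128358604 to 128503363, plus strand) was at 367, 345, 358 and 427 CPM in CD44high and 315 to 379 CPM in CD44low Tregs of uninjured mice, with overlap. The log2 difference was 0.11 (95% interval -0.07 to 0.29, adjusted p = 0.352, edgeR). In injured mice it was at 366, 451, 437 and 411 CPM against 330 to 397 CPM, a difference of 0.18 (95% interval 0.01 to 0.35, adjusted p = 0.113, edgeR). The slope of log2 CPM per doubling of exon length was -0.053 to -0.026 in uninjured CD44high and 0.071 to 0.162 in uninjured CD44low libraries. In the injured ones it was -0.225 to 0.002 and -0.145 to 0.125. A smoothed curve of each library on exon length, not this straight slope, was then taken out. *Nrp1* was called at 0.38 (adjusted p = 0.000748, edgeR) without injury and 0.31 (0.0041) with it, while the other members kept their calls. The curve was read for *Nrp1* at its 9785 exon bases, whereas its longest transcript has 3645, and the outcome at that shorter length was not tested.

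*Foxp3*, on whose GFP reporter every cell was sorted, did not pass the test between subsets. *Foxp3* (ENSMUSG00000039521.13; chromosome X, 7573644 to 7595245, plus strand) was at 86.1, 103, 77.4 and 84.4 CPM in CD44high and 144, 116, 112, 101 and 103 CPM in CD44low Tregs of uninjured mice. One CD44high library lay within the CD44low range. The log2 difference was -0.39 (95% interval -0.87 to 0.08, adjusted p = 0.186, edgeR). In a fit of the uninjured groups alone it was -0.40 (adjusted p = 0.00863), and without the 3 libraries of a second number -0.40 (0.0413), both called.

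In injured mice *Foxp3* was at 47.7, 96.8, 74.5 and 63.9 CPM in CD44high Tregs. The CD44low libraries 1, 2 and 5 held 76.0, 82.8 and 65.5 CPM and libraries 1_2, 4_2 and 5_2 held 76.4, 181 and 140 CPM. The log2 difference was -0.55 (SE 0.233, adjusted p = 0.0681, edgeR), and it was called when any of 5 libraries was left out. Those values were -0.73 (adjusted p = 0.0249) without CD44high library 3, and -0.65 (0.0364), -0.63 (0.0459), -0.67 (0.0253) and -0.62 (0.0439) without CD44low libraries 1, 2, 5 and 1_2. It was nearer to 0 without CD44low library 4_2 (-0.33, adjusted p = 0.2) or 5_2 (-0.46, 0.133) or CD44high library 2 (-0.42, 0.195). With only 1_2, 4_2 and 5_2 for CD44low it was -0.93 (adjusted p = 0.00327), and without those 3 libraries it was -0.08 (0.782). DESeq2 gave -0.56 (adjusted p = 0.0468), the sums of 1 with 1_2 and 5 with 5_2 gave -0.63 (0.0295), and a fit of the injured groups alone gave -0.57 (0.14).

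Of the 4577 exon bases of *Foxp3*, 31.5% are also in exons of other annotated genes of the table. These genes are *Flicr*, an RNA transcribed within the *Foxp3* gene on the same strand, and the neighbours *Ppp1r3f* and *Ccdc22* on the other strand. An unstranded library cannot tell the bases of the neighbours apart, and strand would not separate those of *Flicr*. *Flicr* was at 29.0 ± 4.61 CPM in CD44high and 56.2 ± 6.74 in CD44low Tregs without injury, and at 19.3 ± 7.77 and 33.2 ± 7.24 with it. *Ccdc22* was at 32.2 ± 9.63 and 65.0 ± 12.9 CPM, then 38.4 ± 5.00 and 71.4 ± 9.04. Their part in the *Foxp3* values was not tested.

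**Figure D3:**
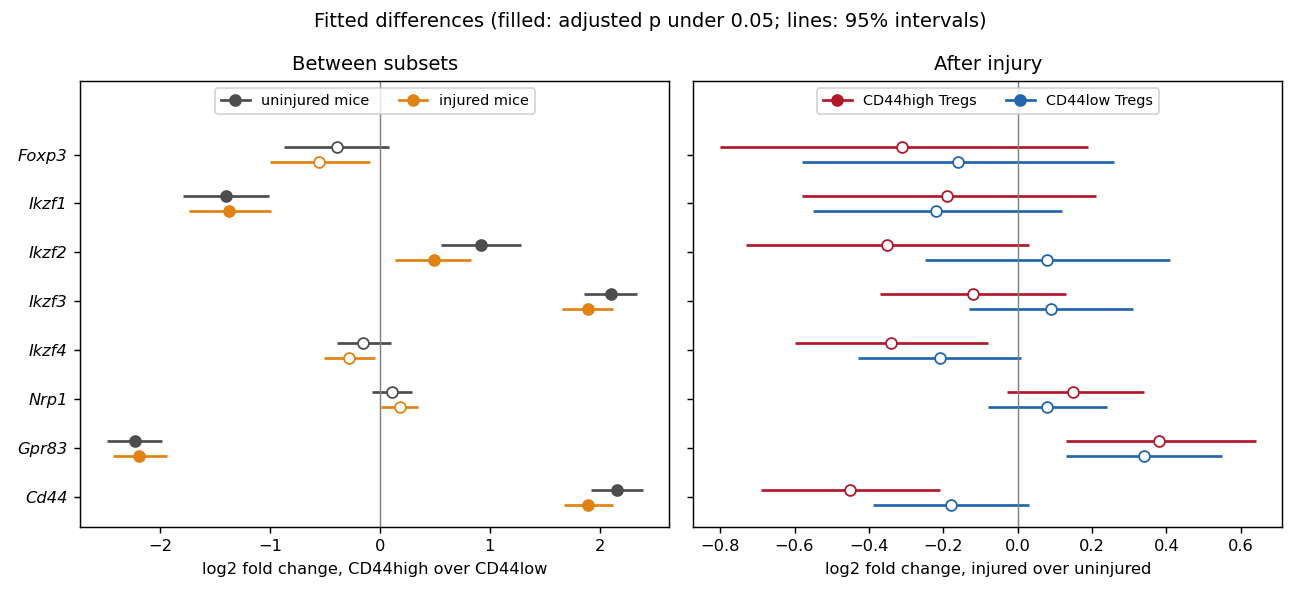
Log2 fold change (horizontal axes) of each gene (vertical axis) between CD44high and CD44low Tregs (left, in uninjured and injured mice) and between injured and uninjured mice (right, in each subset), with 95% intervals as lines and filled points for an adjusted p under 0.05. On the left, 5 genes are filled in both conditions, from -2.23 for *Gpr83* to 2.16 for *Cd44*. On the right, 0 are filled, and values run from -0.45 to 0.38.

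In CD44high Tregs, 0 of 8 members were called after injury by edgeR, against 2.38% of all genes, with 3 at an unadjusted p under 0.05 and 1 called by DESeq2. In CD44low Tregs 0 of 8 were called, against 7.6% of all genes, with 1 at an unadjusted p under 0.05 and 1 called by DESeq2. The difference between the subsets in the injury effect was called for 0 of 8 members by edgeR and by DESeq2, against 0.645% of all genes by edgeR, with 0 at an unadjusted p under 0.05 and interactions between -0.43 for *Ikzf2* and 0.07 for *Nrp1*. Groups did not overlap for 1 member in each subset, against 13.3% and 4.68% of all genes.

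The member without overlap in CD44high Tregs was *Cd44* itself. Its 4 injured libraries, at 369 to 497 CPM, were below the 4 uninjured ones, at 541 to 626 CPM. The log2 fold change was -0.45 (SE 0.123, 95% interval -0.69 to -0.21, adjusted p = 0.0546, edgeR). DESeq2 gave the same change with an adjusted p of 0.0194, and the 2 CD44high groups alone gave -0.42 (0.0222). It was also called without CD44high library 3 (-0.51, adjusted p = 0.0471) or CD44low libraries 1 (-0.44, 0.0345) or 1_2 (-0.45, 0.0418) of injured mice. In CD44low Tregs the change was -0.18 (95% interval -0.39 to 0.03, adjusted p = 0.284, edgeR), and the interaction was -0.26 (SE 0.164, adjusted p = 0.601). The cells had been gated on CD44 protein in both conditions.

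The member without overlap in CD44low Tregs was *Gpr83*. Its 6 injured libraries, at 405 to 468 CPM, were all above the 5 uninjured ones, at 318 to 372 CPM. The log2 fold change was 0.34 (SE 0.107, 95% interval 0.13 to 0.55, adjusted p = 0.0508, edgeR). DESeq2 (0.36, adjusted p = 0.016), RLE size factors (0.36, 0.0401) and no filter on low counts (0.37, 0.0403) called it. So did leaving out any of 9 of the 19 libraries, with values of 0.34 to 0.39 and adjusted p between 0.0158 and 0.0486. These were uninjured CD44high 2, 3, 4 and 5, uninjured CD44low 5, injured CD44high 2 and 4 and injured CD44low 4_2 and 5_2. In CD44high Tregs the change was 0.38 (SE 0.128, adjusted p = 0.126, edgeR), with 3 of 4 injured libraries above every uninjured one, and the interaction was 0.04 (95% interval -0.29 to 0.37).

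The log2 differences of the other members, which did not pass the test, were in CD44high Tregs -0.35 (*Ikzf2*, adjusted p = 0.417), -0.34 (*Ikzf4*, 0.192), -0.31 (*Foxp3*, 0.622), -0.19 (*Ikzf1*, 0.729), -0.12 (*Ikzf3*, 0.709) and 0.15 (*Nrp1*, 0.483) by edgeR. In CD44low Tregs they lay between -0.22 (*Ikzf1*, 0.441) and 0.09 (*Ikzf3*, 0.656). For *Nrp1* the 95% interval in CD44low Tregs was -0.08 to 0.24, the narrowest of the members. With each library's smoothed curve on exon length taken out, the difference was called at 0.29 (adjusted p = 0.0243, edgeR). The 2 injury comparisons share no library, but each shares its libraries with the comparisons of the subsets.

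The injured CD44low values of *Ikzf1* and *Foxp3* depended on which libraries stood for the group. *Ikzf1* was at 101, 122 and 174 CPM in libraries 1, 2 and 5 and at 182, 203 and 245 CPM in libraries 1_2, 4_2 and 5_2, and the uninjured group lay at 193 to 204 CPM. Without the libraries of a second number, injury gave -0.59 for *Ikzf1* (adjusted p = 0.0219), -0.62 for *Foxp3* (0.0195) and 0.41 for *Gpr83* (0.0316), so that 3 of 8 members were called by edgeR. With only those libraries, the values were 0.10 for *Ikzf1* (adjusted p = 0.735) and 0.22 for *Foxp3* (0.591), and 0 of 8 were called. *Gpr83* was at 455 to 468 CPM in the first set and 405 to 450 CPM in the other. Summed macrophage and dendritic cell markers were at 52.1, 73.6 and 146 CPM in the first set and 31.7, 40.3 and 42.8 CPM in the other. What set these libraries apart was not tested.

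Levels of different genes were compared per kilobase of exon. *Foxp3* was divided by all of its 4577 exon bases, of which 31.5% are shared with other genes. The effect of this on its place in the order was not tested. In uninjured CD44high Tregs the order was *Cd44* (87.8 ± 5.54 CPM per kilobase), *Ikzf3* (47.5 ± 1.21), *Nrp1* (38.2 ± 3.70), *Ikzf4* (32.2 ± 2.97), *Ikzf2* (19.6 ± 2.66), *Foxp3* (19.2 ± 2.40), *Gpr83* (14.6 ± 2.05) and *Ikzf1* (13.0 ± 2.03). *Nrp1* and *Ikzf4*, *Ikzf2* and *Foxp3*, and *Gpr83* and *Ikzf1* overlapped between libraries. In uninjured CD44low Tregs it was *Gpr83* (68.5 ± 4.08), *Ikzf4* (35.6 ± 4.34), *Nrp1* (35.5 ± 2.71), *Ikzf1* (34.4 ± 0.706), *Foxp3* (25.2 ± 3.77), *Cd44* (19.7 ± 2.37), *Ikzf3* (11.1 ± 1.92) and *Ikzf2* (10.4 ± 1.25). There *Ikzf4*, *Nrp1* and *Ikzf1* overlapped, as did *Foxp3* with *Cd44* and *Ikzf3* with *Ikzf2*. *Gpr83* thus led the members in CD44low Tregs and was next to last in CD44high Tregs. With the longest transcript as the length, *Nrp1* moved up to second place in CD44high and to first in CD44low Tregs without injury, and the order of the other members stayed.

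**Figure D4:**
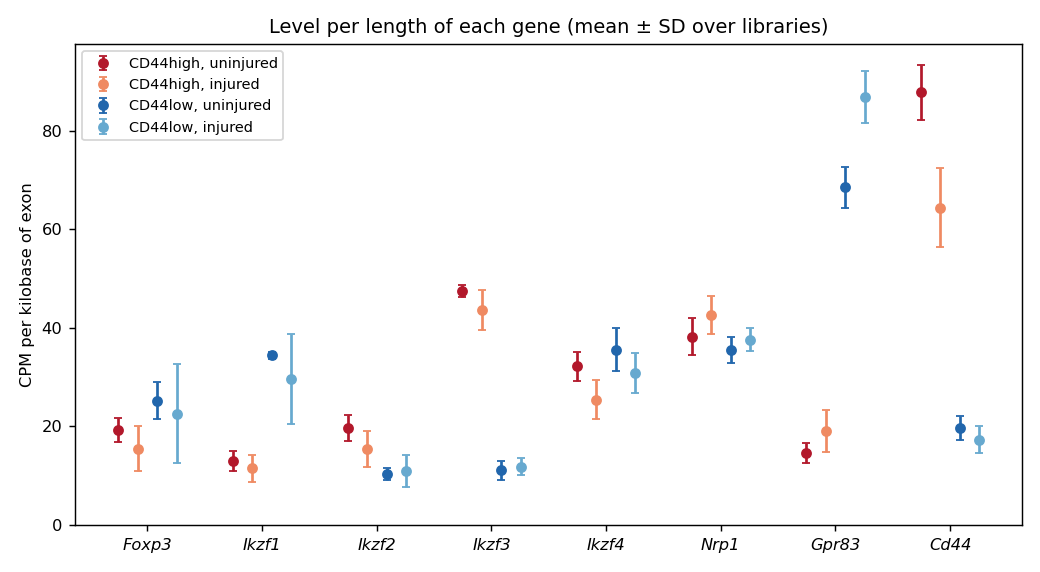
Mean level per kilobase of exon (vertical axis, CPM per kilobase; bars are the SD over libraries) of each gene (horizontal axis) in the 4 groups of 4, 5, 4 and 6 libraries. *Gpr83* reaches 86.9 in injured CD44low Tregs and *Cd44* 87.8 in uninjured CD44high Tregs, while *Foxp3* lies between 15.5 and 25.2.

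In injured mice *Cd44* (64.4 ± 8.05), *Ikzf3* (43.6 ± 4.00) and *Nrp1* (42.6 ± 3.82) led in CD44high Tregs, the last 2 overlapping. All neighbours from *Ikzf4* (25.4 ± 3.94) down to *Ikzf1* (11.5 ± 2.72) overlapped too. In CD44low Tregs *Gpr83* (86.9 ± 5.23) stood apart, and all neighbours from *Nrp1* (37.6 ± 2.27) down to *Cd44* (17.3 ± 2.68) overlapped, as did *Ikzf3* (11.8 ± 1.69) and *Ikzf2* below it. With the longest transcript as the length, the order at the top of injured CD44high Tregs was *Nrp1* (114 CPM per kilobase), *Ikzf3* (82.8) and *Cd44* (77.7), and *Ikzf2* stood above *Foxp3*. In injured CD44low Tregs *Gpr83* was then at 104 and *Nrp1* at 101, and *Ikzf3* (22.3) stood above *Cd44* (20.9).

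For the 5 members called in both conditions, the genes of most similar pattern were sought among 8528 genes by the root mean square distance in centred log2 CPM over the 19 libraries. Nearest to *Ikzf1* were *Ttyh3* (0.159), *Nin* (0.186) and *Itga6* (0.194). *Itga6*, an integrin subunit, was at a mean of 138 and 408 CPM in uninjured CD44high and CD44low Tregs. Nearest to *Ikzf3* were *Tnfrsf1b* (0.187), which encodes TNF receptor 2, *Matk* (0.236) and *Neu3* (0.237), and *Tnfrsf1b* was at 1560 and 394 CPM. Nearest to *Gpr83* were *Evl* (0.241), *Igf2r* (0.259) and *Degs2* (0.262), and nearest to *Ikzf2* were *Glcci1* (0.221), *Arhgap10* (0.231) and *Plp2* (0.237). Nearest to *Cd44* were the chemokine receptor gene *Ccr6* (0.199), the cytokine receptor gene *Il12rb1* (0.215) and the DNA ligase gene *Lig1* (0.230). The members' own root mean square around their means ran from 0.465 for *Ikzf2* to 1.13 for *Gpr83*, so for *Ikzf2* the distances are a larger part of its spread.

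Genes known to regulate *Foxp3* transcription were called in 14 of 22 cases between the subsets of uninjured mice, 4 higher and 10 lower in CD44high Tregs, which is 63.6% against 46.1% of all genes. The median log2 fold change was -0.46 against 0.01 for all genes. *Satb1*, a chromatin organizer, was at 47.2 ± 10.6 and 675 ± 51.4 CPM, a log2 fold change of -3.83 (SE 0.137, adjusted p = 7.61e-16, edgeR). *Bach2*, a repressor of effector genes, was lower by a change of -2.79. *Uhrf1*, which maintains DNA methylation, was higher (3.20), and so was *Runx3* (1.21). After injury 1 of 22 (4.55%, against 2.38% of all genes) was called in CD44high Tregs, *Satb1*, which rose to 139 ± 14.2 CPM (1.56, SE 0.131, adjusted p = 2.26e-07, edgeR) and also had a called interaction (1.71). The count in CD44high Tregs moved in 7 of 29 alternatives, among them DESeq2 (2) and the compared groups alone (3). In CD44low Tregs 4 of 22 (18.2%, against 7.6% of all genes) were called, all lower, among them *Foxo1* (-0.47) and *Rel* (-0.90). That count was 9 without injured library 5_2 and 2 without uninjured library 4, and it was 10 without and 2 with only the libraries of a second number.

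Protein partners and stability factors of *Foxp3* were called in 11 of 18 cases in uninjured mice (61.1%, against 46.1% of all genes), 6 higher and 5 lower, with a median of -0.12. The nuclear receptor gene *Rora* (3.11) was higher, and the HMG box factors *Tcf7* (-1.91) and *Lef1* (-1.28) were lower in CD44high Tregs. After injury *Tcf7* rose in CD44high Tregs from 323 ± 24.2 to 491 ± 18.4 CPM (0.60, SE 0.0902, adjusted p = 0.000328, edgeR). It was the 1 gene called of 18 (5.56%, against 2.38% of all genes), a count that was 2 without uninjured CD44high library 4 or injured CD44low library 1_2. In CD44low Tregs *Stub1*, an E3 ligase gene, rose (0.58) and the deacetylase gene *Sirt1* fell (-0.59), the 2 called of 18 (11.1%, against 7.6% of all genes). That count was 5 without CD44low library 5_2 or without all libraries of a second number, 4 without CD44high library 2 of either condition, and 1 without injured library 1_2 or uninjured CD44low library 1 or 5. NuRD and Sin3 subunits with *Ikzf5* were called in 5 of 16 cases (31.2%) in uninjured mice, below the 46.1% of all genes. *Rbbp7* (0.68) and *Mbd2* (0.42) were higher and *Chd3* (-1.13) and *Sin3a* (-0.79) lower in CD44high Tregs. After injury 0 of 16 were called in CD44high Tregs, against 2.38% of all genes. In CD44low Tregs 2 of 16 (12.5%, against 7.6% of all genes) were called, *Mbd2* (0.33) and *Mbd3* (0.31). The latter count was 1 without CD44low library 4 or 5 of uninjured mice, CD44low library 1_2 or injured CD44high library 5.

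Other Treg signature genes differed in 20 of 22 cases in uninjured mice (90.9%, against 46.1% of all genes), 15 higher and 5 lower in CD44high Tregs, with a median of 1.16. The list was chosen with earlier results of these data known. The study had already named *Icos*, *Ctla4*, *Itgae*, *Tigit*, *Fgl2*, *Cd83* and *Nt5e* from it as higher in CD44high Tregs, and *Il2ra* as higher in CD44low Tregs. It had also named *Tnfrsf18* and *Tnfrsf4* as higher in CD44high Tregs of injured than of uninjured mice. The share here and the shares after injury are therefore descriptions and not independent tests. *Gzmb*, which encodes granzyme B, was at a mean of 408 against 3.75 CPM (6.77, SE 0.326) and *Fgl2*, an immunosuppressive secreted factor, at 699 ± 142 against 22.4 ± 3.72 CPM (4.96). *Lrrc32*, the anchor of latent TGF-beta, was lower at 134 ± 19.4 against 482 ± 65.2 CPM (-1.85), and *Plagl1* was lower by -2.11. *Gpr83* and *Lrrc32* thus ran opposite to most of this signature. After injury 5 of 22 (22.7%, against 2.38% of all genes) were called in CD44high Tregs, 2 higher and 3 lower, with *Fgl2* at -1.40 and *Izumo1r*, the folate receptor 4 gene, at 0.77. In CD44low Tregs 8 of 22 (36.4%, against 7.6% of all genes) rose and 0 fell, with *Icos*, a costimulatory receptor gene, at 0.86 and *Ctla4*, an inhibitory receptor gene, at 0.73.

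Of the ligands and partners of *Nrp1*, 9 of 19 passed the filter on low counts and 5 (55.6%, against 46.1% of all genes) were called in uninjured mice. That count was 3 without CD44high library 3 or CD44low library 1 of uninjured mice. *Gipc1*, the adaptor that binds the *Nrp1* tail, was higher (0.63, 103 against 66.3 CPM), as was *Vegfb* (0.60). *Nrp2*, at 1.03 ± 1.19 and 5.30 ± 2.87 CPM, and *Plxna3*, at 1.17 ± 0.522 and 4.49 ± 3.52 CPM, were lower. After injury 1 of 9 was called in each subset (11.1%, against 2.38% of all genes in CD44high and 7.6% in CD44low Tregs). *Sema4a* fell in CD44high Tregs (-0.74), a count that was 0 without CD44high library 3 or 5 of uninjured or 2 or 5 of injured mice. *Sema3d* fell in CD44low Tregs (-1.69, at 0.739 against 2.46 CPM). That count moved in 15 of 29 alternatives, to 2 without injured CD44low library 5 and to 0 in the rest. *Gpr171*, a receptor for another peptide of the proSAAS precursor that yields a *Gpr83* ligand, was higher in CD44high Tregs (0.91, 97.3 against 51.8 CPM), the reverse of *Gpr83*. Of CD44 ligands, linkers and proteases, 13 of 19 were tested and 5 were called in uninjured mice, all higher. That is 38.5%, below the 46.1% of all genes. *Hmmr*, another hyaluronan receptor gene also linked to the mitotic spindle, was at 44.4 ± 6.56 CPM in CD44high Tregs and 0.123 ± 0.205 CPM in CD44low Tregs, where 3 of 5 libraries had 0 counts. After injury *Hmmr* was at 1.77 ± 0.998 CPM in CD44low Tregs (adjusted p = 0.00114, edgeR), the 1 gene called of 13 (7.69%, against 7.6% of all genes). That count moved in 15 of 29 alternatives and ran from 0 to 3. In CD44high Tregs 0 of 13 were called after injury, against 2.38% of all genes, and 1 was called in 5 of 29 alternatives. In uninjured mice the protease gene *Mmp9* was at 74.5 ± 26.4 CPM in CD44high against 2.88 ± 2.81 CPM in CD44low Tregs.

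Markers of other cells moved with some of these groups. All 6 macrophage and dendritic cell markers had counts in each group, and their sum was 79.5 to 153 CPM in CD44high and 19.8 to 38.8 CPM in CD44low Tregs without injury. With injury it was 104 to 241 and 31.7 to 146 CPM, most of it *Lyz2*. *Itgam* was at 3.90 to 7.37 and 0 to 0.945 CPM in uninjured mice. Their part in the values of *Cd44*, *Mmp9* and the other genes was not tested. Neutrophil markers summed to 0 to 0.178 CPM in CD44high and 0 to 1.69 CPM in CD44low Tregs without injury, and to 1.06 to 19.1 and 0 to 28.9 CPM with it. The 4 markers of endothelium and stroma summed to 59.3 to 72.7 CPM in CD44high and 187 to 219 CPM in CD44low Tregs without injury, and to 78.3 to 113 and 135 to 230 CPM with it. Nearly all of that was *Pecam1*, at 56.1 to 70.8 and 186 to 219 CPM without injury. The other markers did not share its direction. *Col1a1* was at 1.43 to 3.22 CPM in CD44high and 0 to 0.284 CPM in CD44low Tregs without injury. *Cdh5* was at 0 in CD44low Tregs and at most 0.667 CPM in CD44high Tregs, and *Pdpn* was at 0 in all groups. The part of these markers in the values was not tested. The 2 CD8 T cell markers summed to 39.2 to 65.7 CPM.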

How the data were processed

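Bulk RNA-seq libraries were compared as 4 groups taken from the labels. The authors deposited raw counts per gene without normalization, made through the VIPER workflow from SMART-Seq cDNA, which does not mark strand. The submitters' processing notes name STAR 2.5, bcl2fastq 2.18 and the builds mm9 and mm10, without roles, so positions and lengths are those of GENCODE vM21 (GRCm38) and not of the counts. All 19 columns were used.

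Counts were analysed with R 4.3.3 and edgeR 4.0.16 (minimum count 10, TMM factors, 1 mean per group, quasi-likelihood test, two-sided, Benjamini-Hochberg over 11464 genes, no block), with DESeq2 1.42.0 as an alternative. Each library was taken as 1 replicate, and precision was set by the number of libraries and by totals of 5582234 to 9433610 counts. Members and lists were chosen with earlier results of these data known. Genes named were the 8 members, the 3 genes nearest to each member called in both conditions (mean CPM of at least 10), and per list the 2 called of largest rise and of largest fall in uninjured mice and the 2 of smallest p after injury. Single genes named outside this rule (Ikzf5, genes that share exons with Foxp3, marker genes) were chosen after their values were seen, and 1 result withheld for evaluation is not reported here. The test was tried on simulated data of the same groups in which few genes were changed. There 75.5% of 98 genes changed 2-fold between uninjured subsets were recovered among 11268. For injury it was 71.4% of 98 among 11273 in CD44high and 81.6% of 98 among 11287 in CD44low Tregs, and 51.5% of 99 among 11289 for the interaction. In the real data 46.1% of genes were called between uninjured subsets. These rates do not cover smaller changes, such as those of the members after injury (log2 -0.45 to 0.38 in CD44high Tregs). The study's threshold, other size factors, other sets of libraries, a replicate block and each library left out were alternatives. Taking out the length trend, a smoothed curve per library on summed exon length, was chosen after seeing the data.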

Additional observations from a re-analysis of the deposited data

How the results depend on the processing

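The 8 members gave 40 results and 1152 alternative values, of which 1085 kept the direction and the side of the threshold, 42 became called, 8 lost their call and 17 changed sign, and 24 results did none of these. In CD44high Tregs the count of members called after injury was 1 instead of 0 with DESeq2, without the second-number libraries, with only those, with 1 and 1_2 and 5 and 5_2 summed, and with the compared groups alone, and 0 to 1 with each library left out. In CD44low Tregs it was 1 with DESeq2, RLE factors, no filter and the compared groups alone, 3 without the second-number libraries, 2 without the length trend, and 0 to 1 with each library left out.

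Signs changed for injury in CD44low Tregs without the second-number libraries (Ikzf2 -0.21) and with only those (Foxp3 0.22, Ikzf1 0.10). They changed for interactions without the second-number libraries (Foxp3 0.32, Gpr83 -0.02), with only those (Ikzf1 -0.28) and without the length trend (Ikzf1 -0.02, Nrp1 -0.07). With each library left out, injury in CD44low Tregs ran from -0.06 to 0.21 for Ikzf2, interactions from -0.11 to 0.16 for Ikzf1, -0.11 to 0.14 for Gpr83 and -0.34 to 0.07 for Foxp3, and the log2 Ikzf3 to Ikzf1 ratio after injury in CD44high Tregs from -0.12 to 0.24. The cause was not tested. Without division by length, Ikzf3 took 45.7% and 15.3% and Ikzf1 8.23% and 31.7% of the Ikaros counts in uninjured CD44high and CD44low Tregs.

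Genes called after injury in CD44high Tregs were 273, and 477 with DESeq2, 581 without the second-number libraries, 476 with the summed ones, 601 with the compared groups alone and 152 to 343 with a library left out. In CD44low Tregs they were 871, and 1460 with DESeq2, 440 with the replicate block, 1748 without and 445 with only the second-number libraries, 463 with the compared groups alone and 510 to 1893 with a library left out. For the interaction they were 74, and 215, 314 and 136 with DESeq2, without and with only those libraries, and 43 to 110 with a library left out. Of 26 same-numbered pairs of libraries 4 had deviations that correlated over 0.1 (median r of 0.005). All 4 joined CD44high to CD44low of one condition (injured 2, 0.167; injured 4, 0.101; injured 5, 0.116; uninjured 4, 0.119), while injured 5 with 5_2 (-0.054) and uninjured 2, 3 and 5 (0.062, 0.001 and -0.007) did not, so the numbers were not taken as pairs. With the replicate block, 5, 6, 0, 0 and 0 members were called in the 5 comparisons, the added call being Foxp3 in injured mice (-0.67, adjusted p = 0.041, edgeR).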
